A study of Mus musculus with 2 samples.

Results

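The classical microRNA genes, those numbered below 500 together with the let-7 genes, were described in regulatory innate lymphoid cells (ILCregs), as the labels call the sorted cells. Members were taken from the platform annotation by name alone: a feature with exactly 1 gene symbol that starts with Mirlet7, or with Mir and a number under 500. Symbols of host transcripts ending in hg were left out. This gave 274 features (transcript clusters) with 269 symbols, of 61344 features on the array, of which 28573 carry 1 gene symbol. The rule uses no measured value, although it was set with earlier results of these data known.

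The cells were obtained by sorting small intestine cells of C57BL/6 mice that were 8 weeks old and kept under SPF conditions. These IL-10-GFP knockin mice carry green fluorescent protein at the interleukin 10 locus. The series holds 1 group of 2 whole-transcript arrays, called replicate 1 and replicate 2, made from amplified total RNA. The labels do not say that separate animals or separate sorts stand behind the arrays, and their spread may therefore be technical. There is no other cell population, so levels were set against a reference on the same arrays, and no p-value was computed.

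MicroRNAs are short RNAs that guide Argonaute proteins to messenger RNAs, whose translation and stability they lower. They are cut from longer primary transcripts by Drosha in the nucleus and by Dicer in the cytoplasm, and the seed near the 5′ end decides most target pairing. In lymphocytes miR-155, miR-146a, miR-142, miR-150 and the miR-181 family are among the best studied, while miR-200 and miR-194 are typical of epithelium and miR-143 and miR-145 of smooth muscle. Arrays of this kind do not separate the primary transcript, the hairpin and the mature microRNA, so the values below belong to a locus and not to the mature product.

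The mature sequences that the results turn on are shown first, from RefSeq with GRCm38.p6 coordinates. The seed, bases 2 to 8, is in capitals. The lymphocyte microRNAs come first because some of their loci stood clear of the reference and related loci did not.
miR-155-5p (chr16:84714143-84714165, plus strand): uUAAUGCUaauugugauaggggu
miR-181d-5p (chr8:84178759-84178781, minus strand): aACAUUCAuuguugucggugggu
miR-181c-5p (chr8:84178924-84178945, minus strand): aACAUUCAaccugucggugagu
miR-29b-3p (chr6:31063025-31063047, minus strand): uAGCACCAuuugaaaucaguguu
miR-29a-3p (chr6:31062673-31062694, minus strand): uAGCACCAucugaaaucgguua
miR-146a-5p (chr11:43374435-43374456, minus strand): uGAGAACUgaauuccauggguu
miR-142a-3p (chr11:87756903-87756925, plus strand): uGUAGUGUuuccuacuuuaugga
The next set shows let-7 and miR-30 microRNAs, which share the seed GAGGUAG or GUAAACA, followed by miR-365-3p with a seed of its own. They are shown because loci of 1 seed or of 1 mature sequence lay on different sides of the threshold.
let-7d-5p (chr13:48536078-48536099, minus strand): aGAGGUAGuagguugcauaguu
miR-98-5p (chrX:151913229-151913250, plus strand): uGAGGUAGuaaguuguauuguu
let-7a-5p (chr13:48538239-48538260, minus strand): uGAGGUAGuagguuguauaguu
let-7g-5p (chr9:106178846-106178867, plus strand): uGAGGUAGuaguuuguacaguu
miR-30c-5p (chr4:120769584-120769606, minus strand): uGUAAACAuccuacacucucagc
miR-30a-5p (chr1:23272274-23272295, plus strand): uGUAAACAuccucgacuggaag
miR-30e-5p (chr4:120772660-120772681, minus strand): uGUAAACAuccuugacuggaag
miR-365-3p (chr11:79726467-79726488, plus strand): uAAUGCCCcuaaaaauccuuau
In the last set the capitals mark stretches of alternating U and G, or of C and A, in rodent microRNAs of the Mir466 and Mir467 families, whose features gave many of the highest signals.
miR-466j (chr10:60960802-60960824, plus strand): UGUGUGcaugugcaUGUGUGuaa
miR-466k (chr3:85467396-85467418, plus strand): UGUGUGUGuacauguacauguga
miR-467h (chr9:115381898-115381919, plus strand): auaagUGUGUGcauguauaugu
miR-467f (chr11:69635419-69635439, minus strand): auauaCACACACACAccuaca
miR-466q (chr3:28419988-28420007, plus strand): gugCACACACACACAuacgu

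Signals are the authors' deposited values, taken as log2. To gauge what a feature reads without transcript, 1678 olfactory, vomeronasal and taste receptor genes served as the reference, and their 95th percentile was the threshold on each array, 6.74 on replicate 1 and 6.19 on replicate 2. "Above" without further words means above on both arrays, which 41 of the reference genes (2.44%) were. A value under the threshold cannot be told from such signal at this sensitivity, which does not show that the gene is silent. Probes differ in affinity, so signals of different genes, set side by side below, do not order them by abundance. The number of arrays limits the precision of each mean ± SD (n = 2 throughout), and where both signals of a feature are given, that of replicate 1 stands before that of replicate 2. In sorted bulk RNA, fewer cells of a type and less RNA per cell cannot be told apart.

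The label of the cells was set against marker genes on the same arrays. Of 11 innate lymphoid markers 10 were above, and Thy1 (5.56 and 5.72) was not. Among the 10 were Il10 (10.59 and 11.05), Id2 (12.23 and 11.93), Id3 (9.45 and 10.04) and Sox4 (9.33 and 9.51). Of protein-coding features outside the reference, 38.8% were above. Markers of other cells were above as well. For T cells these were 4 of 6, Cd3e at 9.79 ± 0.16 included. For macrophages they were 6 of 7 (up to 14.71 for Lyz2), and for B and plasma cells 4 of 5 (up to 17.79 for Jchain). For epithelium 6 of 6 were above (up to 15.59 for Krt8), and for stroma and smooth muscle 8 of 8. Among the latter Dpt read 19.80 and 19.86, the highest value of each array, so no level can be read from it. For endothelium 3 of 5 were above, and for red cells and platelets 1 of 3. The part of these other cells in the member signals was not tested.

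Most classical microRNA genes were not distinguishable from the reference. Of the members, 56 (20.4%) were above the threshold on both arrays, 26 more on a single array, and 192 on none, against 31.7% of all features with 1 symbol above on both. Their median signal was 4.85, against 5.43 for all such features. Other classes of small RNA genes on the same arrays were near them: 73 of 301 microRNA features numbered 500 and over (24.3%) and 177 of 916 small nucleolar RNA features (19.3%) were above. Of protein-coding features outside the reference, 6440 of 16580 (38.8%) were. None of the members lay at the highest value of an array.

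**Figure D1:**
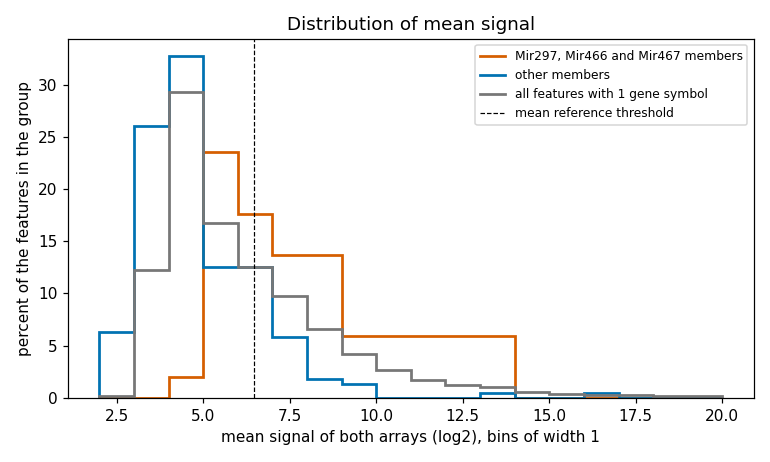
Percent of features (y axis) by mean log2 signal of both arrays (x axis, bins of width 1) for the 51 features of the Mir297, Mir466 and Mir467 families, the other 223 members and all 28573 features with 1 gene symbol, with the mean threshold of 6.47 dashed. The 3 families have a median of 7.89 and lie to the right of all named features, while the other members have a median of 4.46 and lie to the left.

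The members fell into unlike groups by family. Mir297, Mir466 and Mir467 are rodent families with many near-identical copies, most of them in an intron of Sfmbt2, which encodes a Polycomb group protein. With the feature the platform calls Mir446q, which is Mir466q in the gene table, they had 51 features, of which 30 (58.8%) were above, with a median signal of 7.89. The other 223 members had 26 above (11.7%) and a median of 4.46. The families thus supplied 30 of the 56 members above the threshold.

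Within these families signal ran from 4.84 to 13.47. Mir466j read 13.24 on replicate 1 and 13.34 on replicate 2. Mir466k read 12.78 and 12.55, and Mir467h 11.88 and 11.93. All 3 lie outside the Sfmbt2 span, on chromosomes 10, 3 and 9, and their arrays were within 0.23 of each other. Mir466f-4, on chromosome 13, read 12.72 and 12.51. At the other end Mir466i, on the same chromosome, read 5.84 and 5.59, under both thresholds although miR-466i-3p also carries the CA stretch. Of the 39 features inside the Sfmbt2 span, 21 were above (53.8%), among them Mir466f-1 at 13.12 and 12.94 and Mir466h at 11.80 and 11.56. Sfmbt2 itself read 4.44 and 4.25, under both thresholds.

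Many of these features were not separate measurements. Over the whole set 18 members shared both of their values with another member, in 5 distinct pairs of values, all of them in the Mir466 and Mir467 families. The 6 features of Mir467a-1, Mir467a-4, Mir467a-5, Mir467a-7 and Mir467a-8 all read 7.87 and 7.90, and the features of Mir467a-3, Mir467a-6 and Mir467a-10 all read 9.15 and 8.68. The 5 copies Mir466b-1, Mir466b-4, Mir466b-5, Mir466b-6 and Mir466b-7 all read 6.61 and 6.32. With 1 feature kept per distinct pair of values, 49 of 261 members were above (18.8%), and 23 of 38 in the families (60.5%).

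The repeat stretches could be searched in 7 of the 51 family features, those with a mature sequence in the table, and none of the 7 lies in Sfmbt2. UGUGUG or CACACA, searched as these letters on the mature strand only, occurred in 7 of 7 of these mature sequences, in 13 of 375 mature sequences of all members (3.47%) and in 40 of 1674 mature mouse sequences (2.39%). A run of 10 or more alternating UG or CA bases occurred in 5 of 1005 mouse hairpins (0.498%). Members held 2 of these 5, Mir466k with a run of 23 and Mir467h with a run of 12, and both were above the threshold. Mir466i, Mir467f and Mir466q had no hairpin sequence here, but their mature sequences hold CA runs of 10 or more. Of these, Mir467f and Mir466q were above, while Mir466i, at 5.84 and 5.59, was under both thresholds. A match describes the letters only. Over the 203 members with a hairpin sequence, signal went little with base composition or length: Spearman's rho was -0.15 with GC percent and 0.13 with length, across genes that share both arrays. The 22 hairpins above had a median GC of 45.1% and a length of 85, and the 181 others 47.3% and 82.

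**Figure D2:**
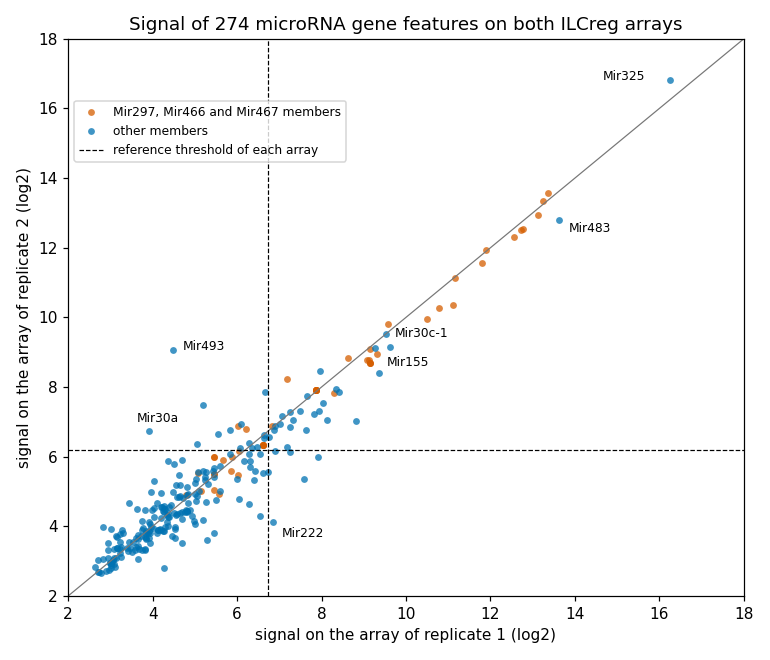
Log2 signal of each of the member features on replicate 1 (x axis) and replicate 2 (y axis), with the Mir297, Mir466 and Mir467 families in orange, other members in blue, the thresholds dashed and the line of equal signal in grey. The high end is mostly orange, with Mir483 and Mir325 as the blue points above 12, and Mir493, Mir30a and Mir222 stand far from the line.

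The feature with the highest member signal is uncertain in identity. The chromosome in the feature identifier matched that of the gene for 99.7% of 28285 named features and differed for 82, and 5 members were among the 82. The first is a feature annotated as Mir325, an X-linked gene, whose identifier names chromosome 13. It read 16.26 and 16.82, while the other Mir325 feature, on the X chromosome, read 4.11 and 3.79. Features of Mir466f-3 (13.36 and 13.58), Mir466o (12.56 and 12.32), Mir378c (8.83 and 7.02) and Mir467e (6.20 and 6.79) also carried another chromosome. The second Mir466f-3 feature, on chromosome 2, read 10.78 and 10.27, and the second Mir467e feature 10.50 and 9.94. Without the 5, 52 of 269 members were above (19.3%).

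Beyond the Mir297, Mir466 and Mir467 families, Mir483 had the highest signal of a member on the chromosome of its gene. This microRNA gene lies in an intron of Igf2, the gene of insulin-like growth factor 2, and read 13.63 and 12.81. It was followed by Mir30c-1 at 9.52 and 9.51, and by Mir320 at 9.63 and 9.14, a microRNA made without Drosha. These were clear of the stricter 99th percentile of the reference too (7.91 and 7.21), as were 33 members in all, 11 of them outside the 3 families. Mir383 (8.14 ± 0.28) is among these 11. Mir346 (7.70 ± 0.08), Mir193b (7.53 ± 0.43), Mir188 (6.97 ± 0.06) and Mir449b (6.88 ± 0.01) were above the threshold but not the stricter percentile on both arrays. On the X chromosome Mir465d (7.62 ± 0.44) and Mir465b-2 (7.20 ± 0.61), copies of a testis-enriched family, were above the threshold as well. Of these copies Mir465d was also above the stricter percentile.

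Of the microRNA genes known from lymphocytes and innate immunity, 23 were measured, of which 5 were above on both arrays, another 5 on a single array, and 13 on none. The share above was near the 20.4% of all members and under the 31.7% of all features with 1 symbol. Their median signal was 5.41, against 4.85 for members and 5.43 for all such features. Mir155, which is induced on activation and required for normal lymphocyte responses, read 9.26 and 9.13, and both values exceeded the stricter percentile. Its annotation lists more than 1 gene identifier, as does that of Mir215, so these 2 features cannot be tied to the microRNA gene alone. Mir155 lies within Mir155hg on the same strand, a host for which no feature with 1 symbol was measured. Whether the Mir155 feature reads that host transcript was not tested. Mir181d, of the family that tunes antigen receptor signalling in T cells, read 9.36 and 8.41. Mir29b-1, of the family that restrains interferon gamma, read 7.96 and 8.45. Mir34a, a p53 target, read 7.19 and 6.28, and Mir24-2 read 6.76 and 6.57, the narrowest margin of any member above.

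Several of the best known members of this group were not clearly separated from the reference. Mir146, the gene of miR-146a, a feedback inhibitor of NF-κB signalling, read 6.29 and 6.40, above on replicate 2 only. Mir142, a gene of blood cells in general, read 6.74 and 5.57 just under the threshold of replicate 1 and further under that of replicate 2. Mir342 (7.60 and 5.36) and Mir222 (6.85 and 4.12) were above on replicate 1 only, while Mir23a (6.09 and 6.95) and Mir27a (5.54 and 6.66) were above on replicate 2 only. Mir181c (5.41 ± 0.89), Mir181b-2 (5.13 ± 0.17), Mir221 (4.52 ± 0.12), Mir212 (4.48 ± 0.73), Mir181a-2 (4.43 ± 0.22), Mir29a (4.13 ± 0.23) and Mir132 (3.88 ± 0.08) were under both. Mir125b-2, Mir125b-1, Mir326 and Mir10b lay between 3.35 and 4.32. Mir150, a microRNA of mature resting lymphocytes, was lowest at 2.97 ± 0.04.

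The let-7 family, whose seed is GAGGUAG and whose members restrain growth and stem cell genes, was measured for all 12 genes of the list. Of these, 2 were above on both arrays and 1 more on a single array, while 9 were not on any, with a median of 5.20. Mirlet7d read 7.26 and 7.29, and Mir98 7.07 and 7.16. Mirlet7a-1 read 6.90 and 6.17, and missed the threshold of replicate 2 by 0.02. Mirlet7f-1 (5.96 ± 0.18), Mirlet7b (5.28 ± 0.07) and Mirlet7e (4.62 ± 0.27) were intermediate, and Mirlet7g was lowest at 3.82 and 3.36. The remaining genes, Mirlet7a-2, Mirlet7f-2, Mirlet7c-1, Mirlet7c-2 and Mirlet7i, lay between 3.63 and 6.01.

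None of the few measured genes of proliferation-linked clusters was above the threshold. Of members outside the Mir297, Mir466 and Mir467 families 11.7% were above, and so few genes cannot show a difference from that share. The Mir106a-363 cluster on the X chromosome, a paralogue of the oncogenic Mir17-92 cluster, had 5 members measured and 0 above, at 5.66 ± 0.09 for Mir92-2, 5.47 ± 1.16 for Mir363, 4.02 ± 0.17 for Mir18b, 3.57 ± 0.34 for Mir20b and 3.54 ± 0.31 for Mir19b-2. Mir106b, of the third such cluster, read 3.45 and 3.37, and the genes of the Mir17-92 cluster were not analysed here. Of the Mir15 and Mir16 family, which restrains the cell cycle, Mir15a read 6.28 and 6.08, Mir16-2 5.06 and 6.38, Mir15b 3.45 and 4.68, and Mir497 2.71 and 3.04. Mir16-2 alone of these 4 was above on 1 array.

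None of the measured genes on the lists for epithelium, stroma and smooth muscle, striated muscle, nerve cells or embryonic stem cells was above the threshold. Most members outside the Mir297, Mir466 and Mir467 families were not either, with 11.7% above and a median of 4.46. Of 15 epithelial members, 0 were above on either array, with a median of 4.27. Mir215, of the intestinal Mir194 cluster, read 6.17 and 5.86, Mir31 6.43 and 5.59, and Mir7-1 5.43 and 5.58. The Mir200 genes, which keep epithelial identity, lay between 3.42 and 5.14, and Mir182, a sensory organ microRNA, was lowest at 3.08 and 2.93. On the same arrays all 6 measured epithelial marker transcripts were above the threshold, with mean signals from 9.42 for Krt20 to 15.59 for Krt8. All 8 stromal and smooth muscle markers were above too, from 8.77 for Des. The 4 measured microRNA genes of that group, Mir199a-1, Mir152, Mir140 and Mir199b, were at 4.53 or lower. Mir143 and Mir145 were not among the members, so nothing is shown for them. The arrays do not show which cell a transcript came from.

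The other tissue groups stayed under the threshold as well. Striated muscle had 0 of 5 above, with Mir1a-1 (3.72 ± 0.02), Mir499 (3.49 ± 0.07) and Mir208b (3.22 ± 0.20) highest and Mir208a lowest of all members at 2.70 and 2.68. The neuronal group had 0 of 14 above and a median of 4.04, with Mir128-2 (5.19 ± 0.23), Mir218-1 (5.04 ± 0.61) and Mir338 (4.73 ± 0.15) highest and Mir138-2 (3.13 ± 0.28) lowest. The embryonic stem cell group had 0 of 6 above and a median of 3.64, from Mir302d (4.59 ± 0.54), Mir302a (4.21 ± 0.03) and Mir302c (3.71 ± 0.08) down to Mir367 (3.32 ± 0.11). Mir126b, the only measured gene of the endothelial list, lies within Egfl7 on the opposite strand and read 3.16 and 3.37. The erythroid Mir486 read 6.30 and 5.87.

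**Figure D3:**
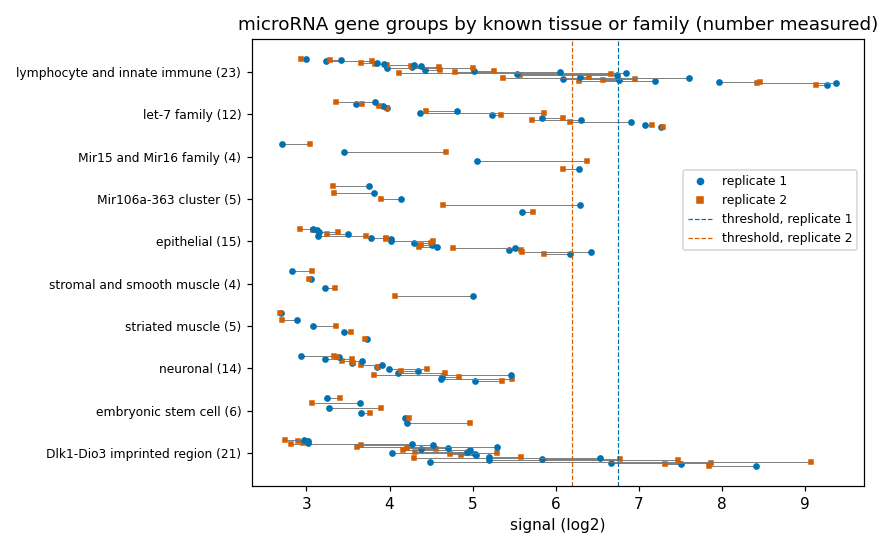
Log2 signal (x axis) of each measured gene in 10 groups of microRNA genes (y axis, number measured in parentheses), with replicate 1 as circles, replicate 2 as squares, the 2 joined by a line, and the threshold of each array dashed. Genes above both thresholds occur in the lymphocyte group (5), the let-7 family (2) and the Dlk1-Dio3 region (2), and long lines mark genes that differ between the arrays.

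The imprinted Dlk1-Dio3 region on chromosome 12, a maternally expressed microRNA block, had 21 members of the list measured, of which 2 were above on both arrays, 4 more on a single array, and 15 on none, with a median of 4.66. Mir494 read 8.40 and 7.84, and Mir329 7.50 and 7.31. Mir341 (6.66 and 7.86), Mir493 (4.49 and 9.07), Mir495 (5.20 and 7.47) and Mir337 (5.84 and 6.77) were above on replicate 2 only. Mir323 was lowest at 2.97 and 2.74. Mir453 (8.13 and 7.06) and Mir432 (6.87 and 6.76), which are not on the list but lie within clusters of its genes, were above on both as well. The 28 members with chromosome 12 in their identifier, some of them outside this region, had a pooled replicate SD of 0.94. Over all members it was 0.49. Mir493, with an SD of 3.24, is among the 28.

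Some loci that give rise to the same mature microRNA lay on different sides of the threshold, and most pairs of such loci did not. Pairs could be formed only among the 215 members with a mature sequence here. This leaves out 44 of the 51 features of the Mir297, Mir466 and Mir467 families. Among those left out, all measured Mir467a copies were above and no Mir466b copy was. Of the 19 pairs of measured loci with an identical mature sequence that could be formed, 16 had neither locus above, 3 had 1 and 0 had both. Signals lay more than 1 apart on both arrays in 7 of the 19, and pairs such as Mir135a-1 (4.14 ± 0.17) and Mir135a-2 (4.09 ± 0.52) were close. The 3 pairs on different sides are as follows. Mature miR-30c-5p, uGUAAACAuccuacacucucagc, comes from Mir30c-1 on chromosome 4, which read 9.52 and 9.51, and from Mir30c-2 on chromosome 1, which read 4.37 and 4.27. Mature miR-365-3p comes from Mir365-2, at 7.25 and 6.86, and from Mir365-1, at 5.05 ± 0.06. The 3p product of Mir465b-2, at 7.63 and 6.77, is that of Mir465 as well, at 5.59 and 5.02. A mature microRNA measurement would not tell such loci apart. Features of different loci have different probes, so their distance does not measure a ratio of transcripts.

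**Figure D4:**
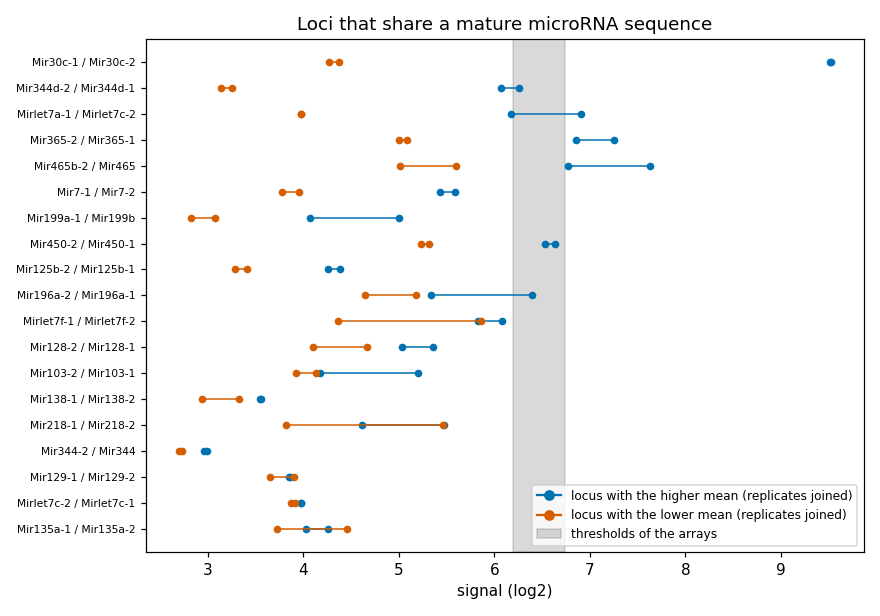
Log2 signal (x axis) of the 19 pairs of loci that share a mature sequence (y axis, locus of higher mean first), with the locus of higher mean in blue, that of lower mean in orange, the replicates of a locus joined, and the range between the thresholds in grey. Mir30c-1, Mir365-2 and Mir465b-2 lie to the right of the grey range on both arrays, and none of the orange points does.

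Neighbouring microRNA genes are often cut from 1 primary transcript. There were 43 clusters of members with gaps of at most 10 kb, holding 153 members, of which 29 had no member above, 14 had members on both sides of the threshold and 0 had all members above. The clusters named next are examples with members on both sides. In the Mir30c-1 cluster, Mir30c-1 was at 9.52 ± 0.01, Mir30e at 4.51 ± 0.19 and Mir30f, on the other strand, at 3.04 and 2.97 on the arrays. Mir181d (8.89 ± 0.67) lay beside Mir181c (5.41 ± 0.89), Mir29b-1 (8.21 ± 0.35) beside Mir29a (4.13 ± 0.23) and Mir193b (7.53 ± 0.43) beside Mir365-1 (5.05 ± 0.06). The pairs Mir181d and Mir181c, and Mir29b-1 and Mir29a, also share a seed. Mir30d (7.78 ± 0.35) lay beside Mir30b (6.30 ± 0.08), and Mir98 (7.11 ± 0.06) beside Mirlet7f-2 (5.11 ± 1.06). In the Mir23a cluster Mir24-2 (6.67 ± 0.13) was above, and Mir23a (6.52 ± 0.61) and Mir27a (6.10 ± 0.79) were above on replicate 2 only.

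Within measured protein-coding hosts of the same strand, there was little relation between the signal of a microRNA gene and that of its host. Of the member symbols, 178 lie within the span of another gene, and 55 lie in a measured protein-coding gene of the same strand, in 49 hosts of which 24 were above the threshold. Pairs whose strand is not known here were left out. Among them are the 39 features in Sfmbt2, of which 21 were above while the host was not. Of all members 20.4% were above, and of those outside the Mir297, Mir466 and Mir467 families 11.7%. In the 55 pairs, members were above in 2 of 25 cases where the host was above, and in 2 of 30 cases where it was not. The first 2 are Mir30c-1 (9.52 and 9.51) in Nfyc (9.49 and 9.43), a subunit of the CCAAT-binding factor NF-Y, and Mir26b (7.32 and 7.06) in the phosphatase gene Ctdsp1 (8.97 and 8.44). The others are Mir188 (7.01 and 6.92) in the chloride transporter gene Clcn5 (6.13 and 6.09), and Mir483 (13.63 and 12.81) in Igf2 (5.06 and 4.87). Mir30e, in the same host as Mir30c-1, read 4.65 and 4.38. Hosts of high signal held low members: Mir7-1 (5.43 and 5.58) lies in Hnrnpk (12.84 and 12.87), Mir148b (4.80 and 4.90) in Copz1 (11.66 and 11.31), and Mir33 (3.81 and 4.45), which acts on cholesterol export, in the sterol regulator gene Srebf2 (8.61 and 8.78). Over the 55 pairs Spearman's rho of member and host was 0.11, a description across genes on the same arrays.

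**Figure D5:**
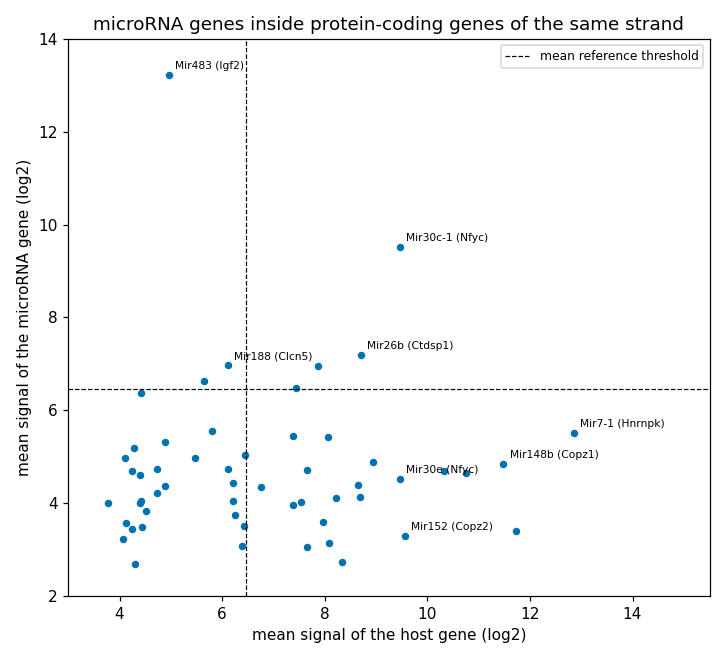
Mean log2 signal of 55 microRNA genes (y axis) against that of the protein-coding gene of the same strand in which they lie (x axis), with the mean threshold dashed on both axes. Most points with a host above the threshold lie under the horizontal line, and Mir483 in Igf2 lies far above it with a host under the threshold.

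Most measured genes whose proteins make and use microRNAs were above the threshold. Of 9 biogenesis genes 7 were above, with a median of 7.59, where 38.8% of protein-coding features outside the reference were above, with a median of 6.06. The helicase gene Ddx17 read 12.48 and 12.03, the splicing factor gene Srsf3 11.15 and 11.28, Dicer1 7.92 and 8.30 and Drosha 7.96 and 7.65, while the Dicer partner gene Prkra was lowest at 5.78 and 5.58. All 13 measured genes of Argonaute proteins and the silencing machinery were above, with a median of 8.72. Among them the poly(A)-binding protein gene Pabpc1 read 13.50 and 14.59, the helicase gene Ddx6 11.75 and 12.77, the deadenylase gene Cnot6 10.61 and 10.79, Ago2 10.51 and 10.88, and the decapping gene Dcp1a was lowest at 7.07 and 7.21. Of 9 genes of tailing and turnover, 5 were above on both arrays and 1 on 1 array. Tent2 (10.04 and 10.10), Tut4 (9.65 and 10.39) and Tut7 (8.96 and 9.91), which add nucleotides to microRNAs or their precursors, were above, and the let-7 antagonists Lin28a (4.52 and 4.50), Lin28b (4.31 and 4.02) and the let-7 target Trim71 (3.79 and 3.75) were not.

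The spread of members between the arrays was near that of other small RNA features. The pooled replicate SD was 0.49 over members, 0.48 over microRNA features numbered 500 and over, 0.47 over small nucleolar RNA features and 0.31 over all features with 1 symbol. It was 0.48 over the reference genes, and among features above the threshold it was 0.35 for members and 0.34 for all. The arrays correlated across the members with r = 0.956 and rho = 0.919, which describes features and not replicates. The difference of replicate 1 minus replicate 2, centred on the median of 0.05 over all named features, exceeded 2-fold for 30 of 274 members. Of these, 16 were higher on replicate 1 and 14 on replicate 2. The share over all features with 1 symbol was smaller, 991 of 28573 (3.47%). Only 3 of the 30 were above the threshold on both arrays, out of 56 such members, where the share over all such features was 4.22%. These were Mir378c (1.76, one of the features of doubtful position), Mir453 (1.02) and Mir297c (-1.10, with 7.18 and 8.23). After them, the above-threshold members most different were Mir181d (0.90) and Mir34a (0.86) on the side of replicate 1, and Mir325 (-0.61) and Mir29b-1 (-0.54) on that of replicate 2.

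The widest gaps were in members above on 1 array or on neither, 10 and 17 of the 30. Mir493 read 4.49 and 9.07, a centred difference of -4.63, the widest of all members. Mir30a read 3.92 and 6.73, and Mir340 read 7.93 and 6.00. Mir222 (2.68), Mir376c (2.19) and Mir342 (2.18) were higher on replicate 1, and Mir495 (-2.32) was higher on replicate 2. Of the 30, 9 lie on chromosome 12, which holds 28 of the 274 members. Their gaps went in both directions: Mir376c, Mir154 and Mir411 were higher on replicate 1, and Mir376b and Mir341 on replicate 2. With 1 array on each side, none of these gaps can be tested.

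The nearest members to the threshold show how fine the line is. Just above it were Mir24-2 and Mir467g (6.83 and 6.87), and just below it were Mirlet7a-1 and Mir465c-2 (7.26 and 6.14), which passed on replicate 1 and missed on replicate 2 by 0.02 and 0.05.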

How the data were processed

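Gene expression was measured on 2 Affymetrix whole-transcript arrays of 1 group, the ILCreg cells. The authors' deposited values are 1 number per feature and array, taken as log2 signal from their range of 2.10 to 19.86. No source states the log base, so a 2-fold difference assumes base 2. Per the submitters' processing notes, MAS5 was used, with neither version nor role named. How background was corrected, how arrays were scaled and which genome build was used is not given in the sources used here. Per the labels' protocols, RNA was extracted with TRIZOL, treated with DNase and amplified with a Pico kit, and sorted cells were over 95% pure.

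From the deposited values, means, SDs, the threshold from the 1678 receptor genes and the centred difference were computed (Python 3.11.15, numpy 2.4.6, pandas 2.3.3). The counting code was tested on simulated members planted far from the threshold, which does not test counts near it. Current symbols, hosts, neighbours and sequences came from RefSeq tables of GRCm38.p6, with a hairpin for 203 members and a mature sequence for 215. Features with several symbols or none were left out.

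The members and the gene lists were chosen with earlier results of these data known. A rule named all lymphocyte and Mir17-92-like genes, the 3 highest and the lowest of other lists, the 10 highest members, up to 5 above-threshold members most different each way, copies on different sides of the threshold and those nearest to it. Neighbours, hosts, members that share values, features of doubtful position and the remaining examples were chosen after their values were seen. Mir146 was added to the lymphocyte list under the platform's spelling after the data were seen. Alternatives were another percentile, another reference, quantile normalization, a 1.5-fold limit, 1 feature per symbol and each array alone.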

Additional observations from a re-analysis of the deposited data

Results flagged for a closer look

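Features whose annotation lists several symbols, 1 of them of a classical microRNA gene, stand outside the comparisons above. There were 70 of them, and 13 (18.6%) were above the threshold on both arrays, with a median signal of 5.58, against 41 of the 1678 reference genes (2.44%). This share is near the 20.4% of members and under the 31.7% of all features with 1 symbol. They were looked at because they hold signal in data that were not used, and no gene is named from them.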

How the results depend on the processing

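The count of members above the threshold was 56. It was 33 with the 99th percentile and 26 without the Mir297, Mir466 and Mir467 members. It stayed within 1.5 times with the 90th percentile (75), keratin-associated protein and Rhox genes as the reference (67), quantile normalization (56), 1 feature per symbol (53), 1 feature per distinct pair of values (49), without the 5 members of doubtful position (52) and with each array alone (61 to 77). The median signal of members, 4.85, was 4.81 to 4.84 with each array alone, 4.76 with 1 feature per symbol, 4.71 with 1 feature per distinct pair of values, 4.46 without the 3 families and 4.76 without the 5 members, all moves larger than the SD of 0.02 between the arrays' medians, except that of 4.84. Above-threshold members over 2-fold apart numbered 3, against 4 with quantile normalization, 9 with a limit of 1.5-fold and 30 over all members. The alternatives on distinct values, the 3 families and doubtful position were chosen after seeing the data. Fewer features enter where members are left out, and the 99th percentile sets higher thresholds (7.91 and 7.21), so its count cannot be larger. No paired analysis was possible because there is only 1 group, and leaving out an array leaves no difference between arrays. Signal near the reference limits what can be said of most members.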
